A study of Mus musculus with 13 samples.

Results

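The genes described here are 9 regulators of cytokine signalling in the mouse duodenum: Il6ra, Stat3, Socs1, Socs2, Socs3, Cish, Nfkbia, Bcl3 and Tnfaip3. They were chosen by name from the 12393 genes that had at least 1 probe set with exactly 1 gene symbol, and each was measured by its probe set with the highest mean over 13 arrays. All 9 were found, with 18 probe sets of a single symbol between them. The arrays hold total RNA from the duodenum of mice of mixed strain background that started their diet at 5 weeks of age and were killed after 22 weeks on it. Each array is 1 sample, and its values are RMA levels on a log2 scale. Normal diet was given to the mice of 2 wild-type arrays and of 3 arrays of K-Ras mutants, titled ViRas. High-fat diet has 2 arrays of each genotype. High-fat diet with butyrate, a fatty acid that bacteria release in the gut, has 1 array of wild type and 3 of mutants. The labels name neither the mutant allele nor the promoter or cell type in which it is active, and they do not say how the butyrate was given.

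Cytokines such as IL-6 bind a receptor at the cell surface and activate JAK kinases, which phosphorylate STAT transcription factors. Phosphorylated STAT proteins switch on Socs and Cish genes, whose products then inhibit the receptors and kinases, so that the pathway limits itself. NF-kappaB is limited in the same manner: it induces Nfkbia, which encodes the inhibitor IkappaB-alpha, and Tnfaip3, which encodes the ubiquitin-editing enzyme A20. In the gut, IL-6 and IL-22 act on the epithelium through Stat3 during repair after injury.

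Promoter sequence was available in the RefSeq table (build GRCm38.p6) for 8 of the 9 genes, in 9 windows of 300 bases, and the 250 bases before each gene's start were searched on both strands. The STAT site TTCNNNGAA, which reads the same on both strands, was found in the window of Socs3 and in no window of the other 7 genes. It occurs in the same 250 bases of 7.02% of all 32851 windows. The NF-kappaB site was found in the window of Nfkbia and in 1 of 2 windows of Tnfaip3, and in 3.9% of all windows. No match of one motif overlapped a match of the other. The stretches shown are those of the windows that held a match, with the matched bases in capitals.
Socs3: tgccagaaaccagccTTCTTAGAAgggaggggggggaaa
Nfkbia: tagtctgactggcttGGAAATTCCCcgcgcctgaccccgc
Tnfaip3: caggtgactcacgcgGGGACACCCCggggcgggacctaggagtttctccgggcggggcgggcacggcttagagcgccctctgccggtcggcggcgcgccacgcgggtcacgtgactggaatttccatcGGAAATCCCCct
The Socs3 stretch lies at chr11:117969497-117969535, the Nfkbia stretch at chr12:55492652-55492691 and the Tnfaip3 stretch at chr10:19015411-19015550, all on the minus strand. The STAT match begins 154 bases before the start of Socs3. The NF-kappaB match of Nfkbia begins 29 bases before its start, and those of Tnfaip3 begin 125 and 12 bases before its start. These are matches of letters, and binding was not measured.

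Array medians lay between 6.04 and 6.14, and all values between 1.76 and 14.2. The enterocyte markers Fabp1 (13.5 to 13.8) and Vil1 (11.8 to 12.3) were high on every array. Other enterocyte markers varied more, such as Anpep (9.75 to 12.83) and Mep1a (7.39 to 9.69). The ileal markers Fabp6 (2.93 to 4.01) and Slc10a2 (2.01 to 2.28) were near the bottom of the range. RNA of acinar pancreas, a neighbouring tissue, varied widely: the mean of 17 acinar markers spanned 6.58 to 13.26, with much of that spread inside single groups (7.16 to 13.26 in mutants on normal diet). It also differed between genotypes. On high-fat diet it was 11.39 and 13.15 in wild type and 6.58 and 10.85 in mutants. With butyrate it was 11.94 in wild type and 6.77 to 11.02 in mutants. The acinar mean entered an alternative fit as a covariate. The arrays of each diet carry sample identifiers in a number range of their own, whereas the genotypes of a diet share a range. The labels do not say whether a range stands for a batch. If it does, diet and batch cannot be told apart. Groups hold 1 to 3 arrays, and so few limit the precision.

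**Figure D1:**
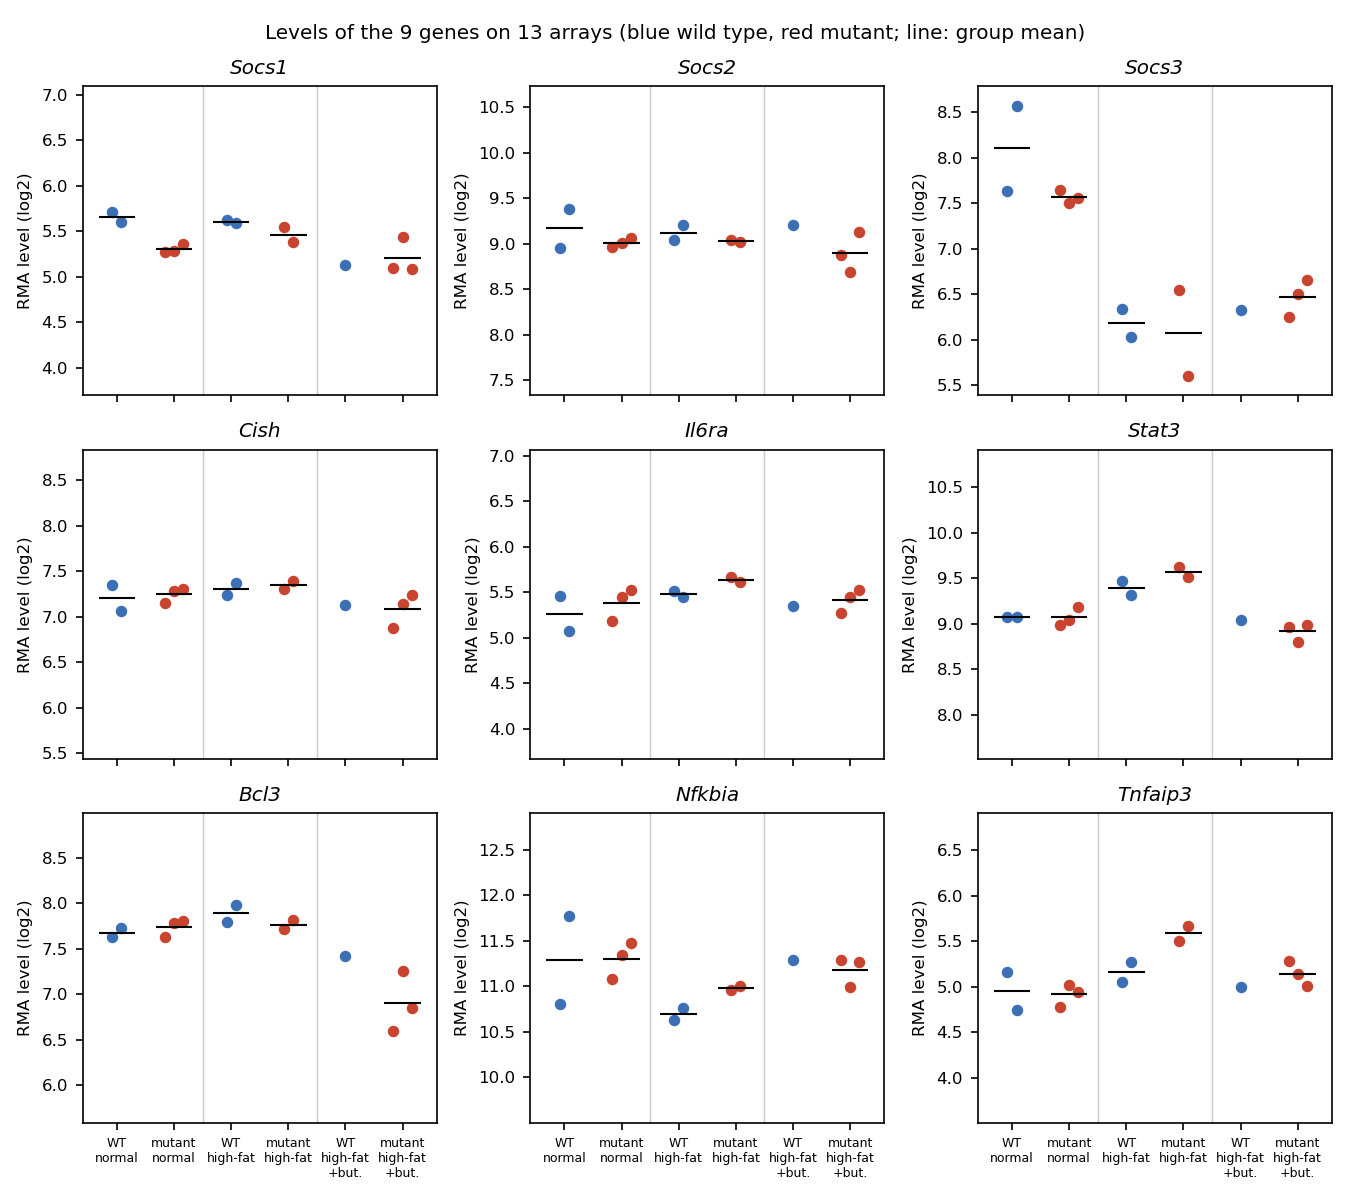
RMA level (log2, y axis) of each of the 9 genes on each array, by genotype and diet (x axis; +but. stands for butyrate). Points are arrays (blue wild type, red mutant), lines are group means, and all panels span the same number of log2 units. Socs3 is highest on normal diet, Stat3 on high-fat diet, and Bcl3 is lowest on high-fat diet with butyrate.

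Diet comparisons called 4 of these genes and genotype comparisons called none, at an adjusted p of 0.05 by limma over all genes. Socs3, the feedback inhibitor of IL-6 receptor signalling, was lower on high-fat than on normal diet in both genotypes. Stat3, the transcription factor that IL-6 activates, was higher on high-fat diet in mutants and lower again with butyrate. Bcl3, an atypical IkappaB protein that works with NF-kappaB in the nucleus, was lower in mutants with butyrate than in mutants on either other diet. Tnfaip3 was higher on high-fat diet in mutants.

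High-fat against normal diet thus called 1 of the 9 genes lower and none higher in wild type, where 11% of all genes were called (5.62% higher and 5.42% lower). In mutants it called 2 higher and 1 lower, where 17.7% of all genes were called (7.67% higher and 10.1% lower). Butyrate against high-fat diet in mutants called 2 lower, where 21.7% of all genes were called (12.9% higher and 8.78% lower). Butyrate against normal diet in mutants called 1 lower, where 1.57% of all genes were called (0.573% higher and 1% lower). In these 4 comparisons the median difference of the 9 genes was 0.09, 0.10, -0.26 and -0.12, against -0.04, -0.02, 0.02 and 0.01 over all genes. Many genes were called between the diets, so the counts alone do not set the 9 apart.

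Each diet had 1 gene of the 9 whose arrays all lay beyond all the others, a feature singled out after the values were seen. The 5 normal diet arrays all lay above the other 8 for Socs3, which holds for 1.27% of all genes, with 1.57% below. The 4 high-fat arrays all lay above the other 9 for Stat3, which holds for 6.31% of all genes, with 9.17% below. The 4 butyrate arrays all lay below the other 9 for Bcl3, which holds for 2.24% of all genes, with 3.57% above. Either direction would have been singled out, so both shares of a diet apply, and on high-fat diet such genes were common. Over the 13 arrays the level of Socs3 on the probe set used spanned 2.97, a wider span than in 98.7% of all genes. Bcl3 spanned 1.39, Nfkbia 1.14, Tnfaip3 0.93, Stat3 0.82, Socs2 0.70, Socs1 0.62, Il6ra 0.59 and Cish 0.51. The median span of all genes was 0.75. The order of the genes depends on the probe set. Socs3 ranged from 5.78 to 7.23 on 1416576_at and from 6.21 to 8.02 on 1456212_x_at, and Stat3 from 7.21 to 9.56 on 1426587_a_at.

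Il6ra encodes the IL-6 binding chain of the receptor. Its levels were 5.46 and 5.07 on wild-type and 5.18, 5.45 and 5.52 on mutant normal diet arrays. On high-fat diet they were 5.51 and 5.45 in wild type and 5.66 and 5.61 in mutants. With butyrate they were 5.35 in wild type and 5.28, 5.45 and 5.52 in mutants. The mutant high-fat arrays were the 2 highest, little above the next, and no comparison of Il6ra passed. Its second, dimmer probe set was lower in mutants with butyrate than on high-fat diet alone (-0.66 ± 0.16 SE, limma adjusted p = 0.0107 over all probe sets), where the first gave -0.22 ± 0.15.

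Stat3 measured 9.08 and 9.08 on wild-type normal diet arrays and 8.99, 9.04 and 9.19 on mutant ones. On high-fat diet it measured 9.47 and 9.31 in wild type and 9.62 and 9.51 in mutants. With butyrate it measured 9.04 in wild type and 8.97, 8.80 and 8.99 in mutants. The high-fat groups were thus the highest, with means of 9.57 in mutants and 9.39 in wild type. Wild type and mutants on normal diet (9.08 and 9.07) and the wild-type butyrate array (9.04) lay together, and the mutant butyrate group was lowest (8.92). In mutants Stat3 rose by 0.50 ± 0.10 SE from normal to high-fat diet (1.41-fold, limma adjusted p = 0.00805). It was lower by 0.65 ± 0.10 with butyrate than on high-fat diet alone (1.57-fold, limma adjusted p = 0.00168). These comparisons share the 2 mutant high-fat arrays. In wild type the difference between high-fat and normal diet was 0.31 ± 0.11 (limma adjusted p = 0.101), and mutants with butyrate differed from mutants on normal diet by -0.15 ± 0.09. The rise in mutants did not pass without mutant high-fat array 1 (0.44 ± 0.13, adjusted p = 0.0731).

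Stat3 had 3 probe sets, and they gave different sizes. Probe set 1426587_a_at read 7.97 and 8.16 in wild type and 7.72, 8.03 and 8.42 in mutants on normal diet. On high-fat diet it read 9.01, 9.18, 9.56 and 9.21, and with butyrate 7.29, 7.37, 7.50 and 7.21. All 4 high-fat arrays lay above, and all 4 butyrate arrays below, every normal diet array. Among all single-symbol probe sets its difference was 1.33 ± 0.19 for high-fat minus normal diet in mutants and 1.03 ± 0.21 in wild type (limma adjusted p = 0.000694 and 0.00771). It was -2.02 ± 0.19 for butyrate against high-fat diet in mutants (adjusted p = 2.93e-05). The dimmest, 1424272_at, gave 0.56 ± 0.16 for high-fat minus normal diet in mutants (adjusted p = 0.0258) and 0.07 ± 0.17 in wild type. For butyrate against high-fat diet it gave -0.44 ± 0.16, which did not pass (adjusted p = 0.0611). With the mean of the 3 probe sets Stat3 passed in wild type as well (0.47 ± 0.13, adjusted p = 0.038).

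**Figure D2:**
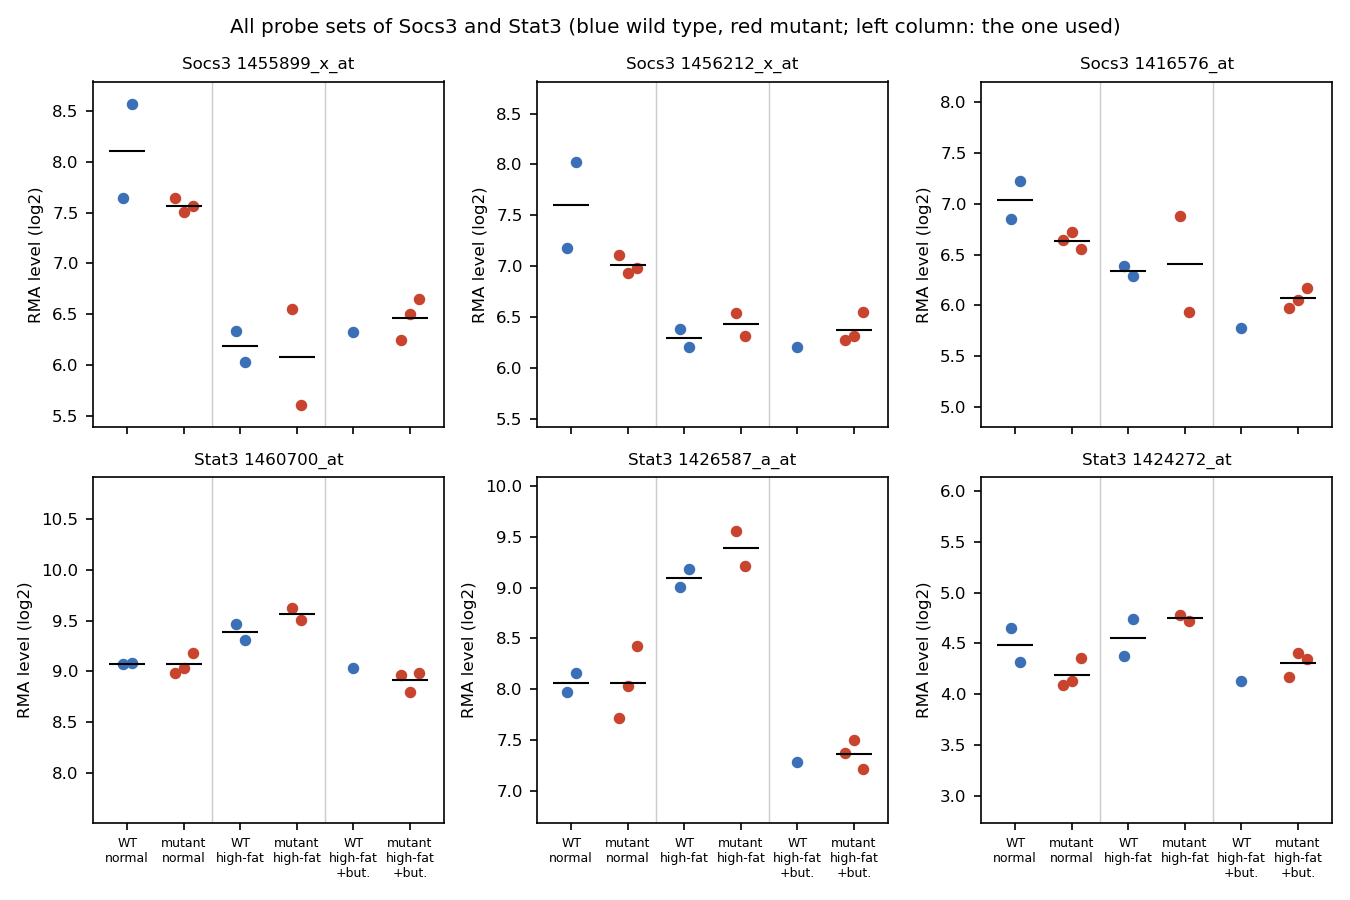
RMA level (log2, y axis) of the 3 probe sets of Socs3 (top) and of Stat3 (bottom) by genotype and diet (x axis; +but. stands for butyrate). Points are arrays (blue wild type, red mutant), lines are group means, and all panels span the same number of log2 units. The normal diet arrays are highest in the x_at probe sets of Socs3, and the high-fat arrays stand highest in 1460700_at and 1426587_a_at of Stat3.

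Socs3 encodes the inhibitor that binds the IL-6 receptor chain gp130 and its JAK kinases. On normal diet its levels were 7.64 and 8.57 in wild type and 7.64, 7.50 and 7.56 in mutants. On high-fat diet they were 6.33 and 6.03 in wild type and 6.55 and 5.61 in mutants. With butyrate they were 6.33 in wild type and 6.25, 6.50 and 6.65 in mutants. The groups fell in the order wild-type normal diet (mean 8.11), mutant normal diet (7.57), mutant butyrate (6.47), wild-type butyrate (6.33), wild-type high-fat (6.18) and mutant high-fat (6.08). The step after the normal diet groups was free of overlap, and the neighbours among the last 4 groups overlapped or lay within their spread.

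Socs3 fell by 1.92 ± 0.32 SE from normal to high-fat diet in wild type (3.79-fold, limma adjusted p = 0.00439). It fell by 1.49 ± 0.29 in mutants (2.81-fold, adjusted p = 0.00596). Mutants with butyrate differed from mutants on normal diet by -1.10 ± 0.26 (2.14-fold), which did not pass (limma adjusted p = 0.0649). It passed with array weights (0.0168) and with the compared groups alone (0.0143), which makes 2 of 8 alternatives. With 1 array left out it passed in 0 of 6 fits, and the mean of probe sets gave -0.77 (adjusted p = 0.0895). Butyrate against high-fat diet gave 0.39 ± 0.29 in mutants. The fall in mutants did not pass without mutant high-fat array 2 (-1.02 ± 0.30, adjusted p = 0.0638), and the fall in wild type did not when only the 4 wild-type arrays were fitted (adjusted p = 0.0678).

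The size of the Socs3 fall depended on the probe set. The values above come from 1455899_x_at, and the suffix x marks probes that can also match other transcripts. The other x_at probe set, 1456212_x_at, gave -1.31 ± 0.23 in wild type (limma adjusted p = 0.00349) and -0.58 ± 0.21 in mutants (adjusted p = 0.0685). The third, 1416576_at, gave -0.69 ± 0.25 in wild type and -0.23 ± 0.22 in mutants, and neither passed (adjusted p = 0.0828 and 0.52). On this probe set mutant high-fat array 1 read 6.88, above the mutant normal diet arrays (6.64, 6.72 and 6.55), while mutant high-fat array 2 read 5.94. With the mean of the 3 probe sets the differences were -1.31 ± 0.25 in wild type and -0.77 ± 0.22 in mutants, and both passed (adjusted p = 0.00738 and 0.0356). All 3 probe sets gave a negative difference in both genotypes.

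For the other inhibitors of the family no diet comparison passed. Socs1, which blocks interferon and other JAK signalling, ranged from 5.60 to 5.71 in wild type and from 5.28 to 5.36 in mutants on normal diet. On high-fat diet it was 5.62 and 5.59 in wild type and 5.55 and 5.38 in mutants, and with butyrate 5.13 in wild type and 5.09 to 5.44 in mutants. It differed by -0.05 ± 0.15 between high-fat and normal diet in wild type and by 0.16 ± 0.13 in mutants. Socs2, which restrains growth hormone signalling through STAT5, stayed between 8.69 and 9.38 on all arrays. Cish, an inhibitor induced by STAT5, stayed between 6.88 and 7.39. Between high-fat and normal diet Socs2 differed by -0.05 ± 0.16 in wild type and 0.02 ± 0.15 in mutants, and Cish by 0.09 ± 0.15 and 0.10 ± 0.14. With butyrate against high-fat diet in mutants, Socs1 differed by -0.26 ± 0.13, Socs2 by -0.13 ± 0.15 and Cish by -0.27 ± 0.14. None of these 9 values passed.

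Bcl3 measured 7.63 and 7.72 in wild type and 7.63, 7.78 and 7.80 in mutants on normal diet. On high-fat diet it measured 7.79 and 7.98 in wild type and 7.72 and 7.82 in mutants. With butyrate it measured 7.42 in wild type and 6.59, 7.25 and 6.84 in mutants. Normal and high-fat diet arrays overlapped, and all butyrate arrays lay lower, with a wide spread among the mutants (SD 0.33, n = 3). In mutants Bcl3 was lower with butyrate than on high-fat diet by 0.87 ± 0.17 SE (1.83-fold, limma adjusted p = 0.0044), and this passed with each of the 5 arrays left out (adjusted p up to 0.04). It was lower with butyrate than on normal diet by 0.84 ± 0.15 (1.79-fold, limma adjusted p = 0.0227), and this did not pass with the compared groups alone (0.0661). With 1 of the 6 arrays left out, the difference stayed between -1.02 and -0.69, but it passed only without mutant butyrate array 2, and the adjusted p reached 0.107 in the other 5 fits. Bcl3 had a single probe set.

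Nfkbia, the IkappaB-alpha gene, measured 10.80 and 11.77 in wild type and 11.08, 11.34 and 11.47 in mutants on normal diet. On high-fat diet it measured 10.63 and 10.76 in wild type and 10.96 and 11.00 in mutants. With butyrate it measured 11.29 in wild type and 11.29, 11.00 and 11.26 in mutants. On this probe set the highest high-fat array and the lowest normal diet array lay close, at 10.76 and 10.80 in wild type and 11.00 and 11.08 in mutants. On each of the other probe sets the mutant arrays of the 2 diets overlapped, and on 1449731_s_at the wild-type arrays did too. High-fat minus normal diet gave -0.59 ± 0.25 in wild type (limma adjusted p = 0.152) and -0.32 ± 0.22 in mutants (0.373). The wild-type difference hung on the normal diet arrays: it was -1.07 ± 0.17 without array 1 (adjusted p = 0.00532) and -0.10 ± 0.17 without array 2 (adjusted p = 0.752). Of its other probe sets 1448306_at passed in wild type (-0.66 ± 0.19, adjusted p = 0.0409 over all probe sets). The 4 probe sets differed in sign on butyrate: against high-fat diet in mutants, 1420089_at gave 0.68 ± 0.18 (limma adjusted p = 0.0184), the one used gave 0.20 ± 0.22, 1448306_at gave -0.08 ± 0.18 and 1449731_s_at gave -0.14 ± 0.22.

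Tnfaip3, the A20 gene, measured 5.17 and 4.74 in wild type and 4.77, 5.02 and 4.95 in mutants on normal diet. On high-fat diet it measured 5.06 and 5.27 in wild type and 5.51 and 5.67 in mutants. With butyrate it measured 4.99 in wild type and 5.28, 5.14 and 5.01 in mutants. The mutant high-fat arrays were the 2 highest of all 13. In mutants Tnfaip3 rose by 0.67 ± 0.16 SE from normal to high-fat diet (1.60-fold, limma adjusted p = 0.0135). The rise did not pass without mutant high-fat array 2 (0.59 ± 0.20, adjusted p = 0.102) or mutant normal diet array 1 (0.60 ± 0.17, adjusted p = 0.0538). Wild type differed by 0.21 ± 0.17, and mutants with butyrate differed from mutants on high-fat diet by -0.45 ± 0.16 (adjusted p = 0.0641). Its mean of 5.12 lay just above 5.09, the 30th percentile of all genes, and it had a single probe set.

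**Figure D3:**
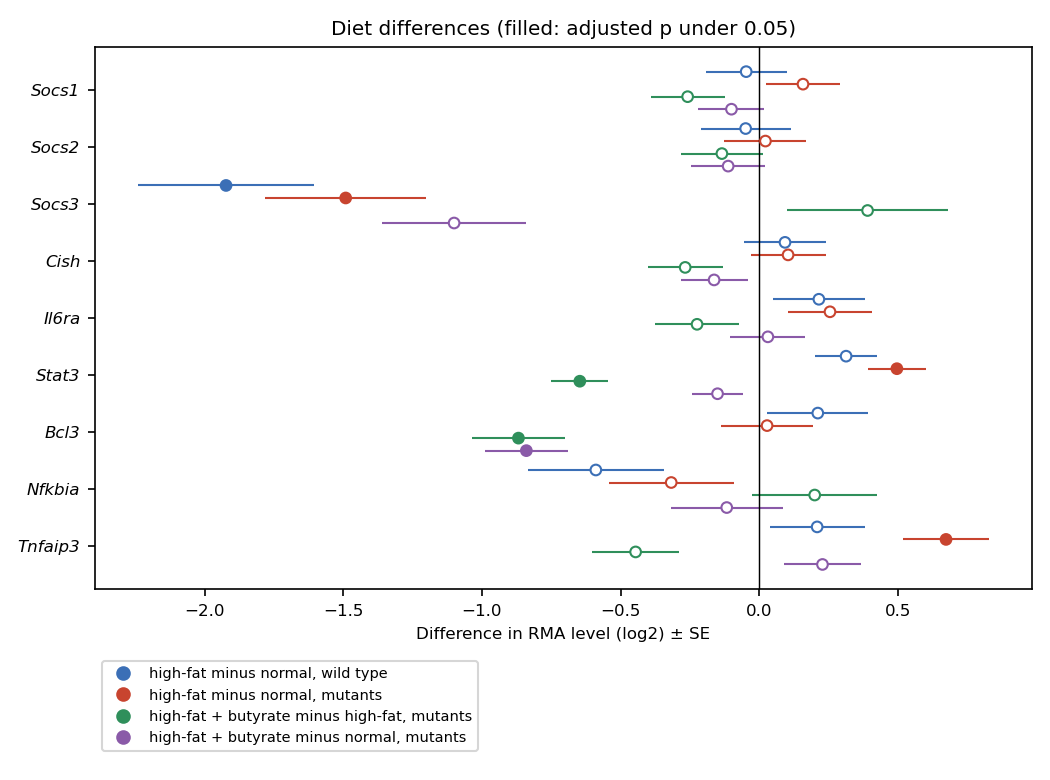
Difference in RMA level (log2, x axis) of each gene (y axis) in 4 diet comparisons; points are estimates, bars are ± 1 SE, and filled points passed an adjusted p of 0.05. Socs3 lies left of 0 in both genotypes between high-fat and normal diet, and Stat3 and Bcl3 lie left of 0 for butyrate against high-fat diet.

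Markers of position and of other cell types moved with some of these comparisons. The mean of 7 genes that mark position along the small intestine (Pdx1, Cdx1, Cdx2, Gata4, Gata6 and the ileal Fabp6 and Slc10a2) was 7.03 to 7.38 on high-fat arrays, 6.60 to 6.82 on normal diet and 6.47 to 6.82 with butyrate. Gata4 and Gata6 rose from normal to high-fat diet in both genotypes and Fabp6 in mutants, and all 3 fell with butyrate against high-fat diet. The list joins ileal genes with others, so its mean gives no direction along the intestine. Fabp6 (2.93 to 4.01) lay below 5.09, the 30th percentile of level. The mean of 14 macrophage and dendritic cell markers was 6.63 to 7.16 in mutants on high-fat diet and 7.14 to 7.70 in mutants with butyrate, with 7 of 14 higher and 1 lower. Of 11 smooth muscle and fibroblast markers, 1 rose and 2 fell on high-fat diet in mutants, and 2 rose and 3 fell with butyrate against high-fat diet. Of 11 enterocyte markers none was called between high-fat and normal diet. With butyrate against high-fat diet in mutants Slc2a2 rose (0.73 ± 0.23) and Anpep fell (-1.57 ± 0.42). The mean of 9 neutrophil markers was 4.74 on mutant high-fat array 1 and 3.86 to 4.28 on the other arrays. Mpo rose on high-fat diet in mutants (0.62 ± 0.19), at levels of 3.10 to 4.17 that also lay below that percentile.

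Lymphocyte markers were lower beside the Socs3 fall in wild type. The mean of 9 B and plasma cell markers was 7.45 to 7.83 on normal and 7.03 to 7.06 on high-fat diet, and 2 of them fell, Cd79b (-1.34 ± 0.24) and Tnfrsf17 (-1.04 ± 0.27). The mean of 13 T cell and intraepithelial lymphocyte markers was 6.82 to 6.95 on normal and 6.31 to 6.62 on high-fat diet, with 12 of 13 differences negative and none passing (4 at an unadjusted p under 0.05). In mutants, where Socs3 fell too, these means overlapped between the diets. There the B cell marker Cd79a rose on high-fat diet (0.90 ± 0.27, limma adjusted p = 0.0418), while 6 of the 9 differences were negative. With butyrate against high-fat diet Cd79a fell (-1.29 ± 0.27). The part of any of these cells in the values of Socs3, Stat3, Bcl3 and Tnfaip3 was not tested. In whole tissue, fewer cells of a type and less RNA per cell cannot be told apart.

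Some kinases and other inhibitors of the pathway passed in the diet comparisons. The list counts here and below stand against 11% of all genes called for high-fat minus normal diet in wild type, 17.7% in mutants and 21.7% for butyrate against high-fat diet; several lists lie near these shares. Of 9 measured JAK kinases and other STAT genes, 2 rose on high-fat diet in wild type and 3 in mutants. Jak1, a kinase of the IL-6 receptor, rose by 0.97 ± 0.11 SE in wild type and 0.76 ± 0.10 in mutants (limma adjusted p = 0.00052 and 0.000844), and fell by 1.17 ± 0.10 with butyrate against high-fat diet (adjusted p = 4.63e-05). It measured 9.62 and 9.79 in wild type and 9.88 and 9.78 in mutants on high-fat diet, and between 8.62 and 9.15 on the other 9 arrays. Stat6 rose in wild type (0.47 ± 0.13), and Stat2 (1.18 ± 0.21) and Jak3 (0.80 ± 0.17) rose in mutants. Jak3 fell with butyrate (-0.74 ± 0.17). Against normal diet, Jak1 was lower in mutants with butyrate (-0.41 ± 0.09, adjusted p = 0.0495), the only gene of the pathway lists called there.

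Of 14 other brakes on JAK-STAT signalling, 4 rose and 2 fell on high-fat diet in wild type, 3 rose and 1 fell in mutants, and 1 rose and 3 fell with butyrate against high-fat diet. Sh2b3, the adaptor LNK, rose by 0.75 ± 0.13 in wild type and 0.93 ± 0.12 in mutants and fell by 0.80 ± 0.12 with butyrate. Ptpn1, a tyrosine phosphatase that acts on JAK kinases, rose by 0.67 ± 0.15 and 0.75 ± 0.14 and fell by 0.65 ± 0.14. The SUMO ligase Pias4 rose by 0.73 ± 0.16 and 0.61 ± 0.14 and fell by 0.85 ± 0.14. Ptpn2, a phosphatase of JAK and STAT proteins, moved the other way, with -0.63 ± 0.14, -0.66 ± 0.13 and 0.72 ± 0.13. All of these passed in limma (largest adjusted p 0.0198). The comparisons of mutants share the high-fat arrays.

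Of 9 measured IL-6 family ligands and receptors none passed between high-fat and normal diet by limma, with 0 at an unadjusted p under 0.05 in wild type and 1 in mutants. The LIF receptor gene Lifr rose with butyrate against high-fat diet (1.25 ± 0.37, adjusted p = 0.0347). Of 16 other cytokine ligands and receptors, Ifngr2, a chain of the interferon-gamma receptor, rose on high-fat diet in wild type and mutants (1.04 ± 0.20 and 1.06 ± 0.19) and fell with butyrate (-0.80 ± 0.19). Il18 fell in wild type on high-fat diet (-0.45 ± 0.12), and Il18 (0.63 ± 0.11) and Il15 (1.16 ± 0.22) rose with butyrate. Of 9 genes of the growth hormone and STAT5 axis, Igfbp3 rose on high-fat diet in wild type and mutants (0.76 ± 0.20 and 0.61 ± 0.18) and Pim1 in mutants (0.46 ± 0.13). Ghr, the growth hormone receptor (0.81 ± 0.23), and Csf2ra (0.58 ± 0.15) rose with butyrate against high-fat diet.

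Genes known as Stat3 targets did not move in 1 direction. Of 26, 1 rose and 2 fell on high-fat diet in wild type, 2 rose and 4 fell in mutants, and 3 rose and 3 fell with butyrate against high-fat diet. Junb, a subunit of the AP-1 transcription factor, rose by 1.35 ± 0.19 in wild type and 1.42 ± 0.18 in mutants and fell by 1.62 ± 0.18 with butyrate. Myc, the growth regulator, fell on high-fat diet (-0.89 ± 0.19 in wild type and -0.69 ± 0.17 in mutants). Fgl1 fell as well (-0.74 ± 0.19 and -0.58 ± 0.17). In mutants the cell division gene Birc5 fell (-0.81 ± 0.17), and with butyrate Birc5 (0.75 ± 0.17) was higher and Cebpb (-0.41 ± 0.10) lower.

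Among 10 measured NF-kappaB subunits and other IkappaB proteins, 0 passed in wild type by limma on high-fat diet, with 2 at an unadjusted p under 0.05. In mutants Relb, a subunit of the noncanonical pathway, rose (0.48 ± 0.12) and Nfkbiz, an inducible nuclear IkappaB, fell (-0.95 ± 0.25). With butyrate against high-fat diet 2 rose and 3 fell: Nfkbiz (1.45 ± 0.25) and Ikbkb (0.43 ± 0.11) were higher, and Nfkbib (-0.70 ± 0.15), Relb (-0.56 ± 0.12) and Nfkb2 (-0.54 ± 0.14) lower. Of 10 A20 partners and other brakes on NF-kappaB, Tollip rose in wild type (0.49 ± 0.09) and Zfp36 in mutants (0.51 ± 0.12) on high-fat diet. With butyrate Itch rose (0.57 ± 0.10) and Tnfrsf1a, the TNF receptor gene, fell (-0.35 ± 0.09). Of 22 NF-kappaB targets and activators, 0 passed by limma between high-fat and normal diet in either genotype, with 4 in wild type and 3 in mutants at an unadjusted p under 0.05. Birc2 (0.75 ± 0.18) and Sod2 (0.32 ± 0.10) rose with butyrate.

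**Figure D4:**
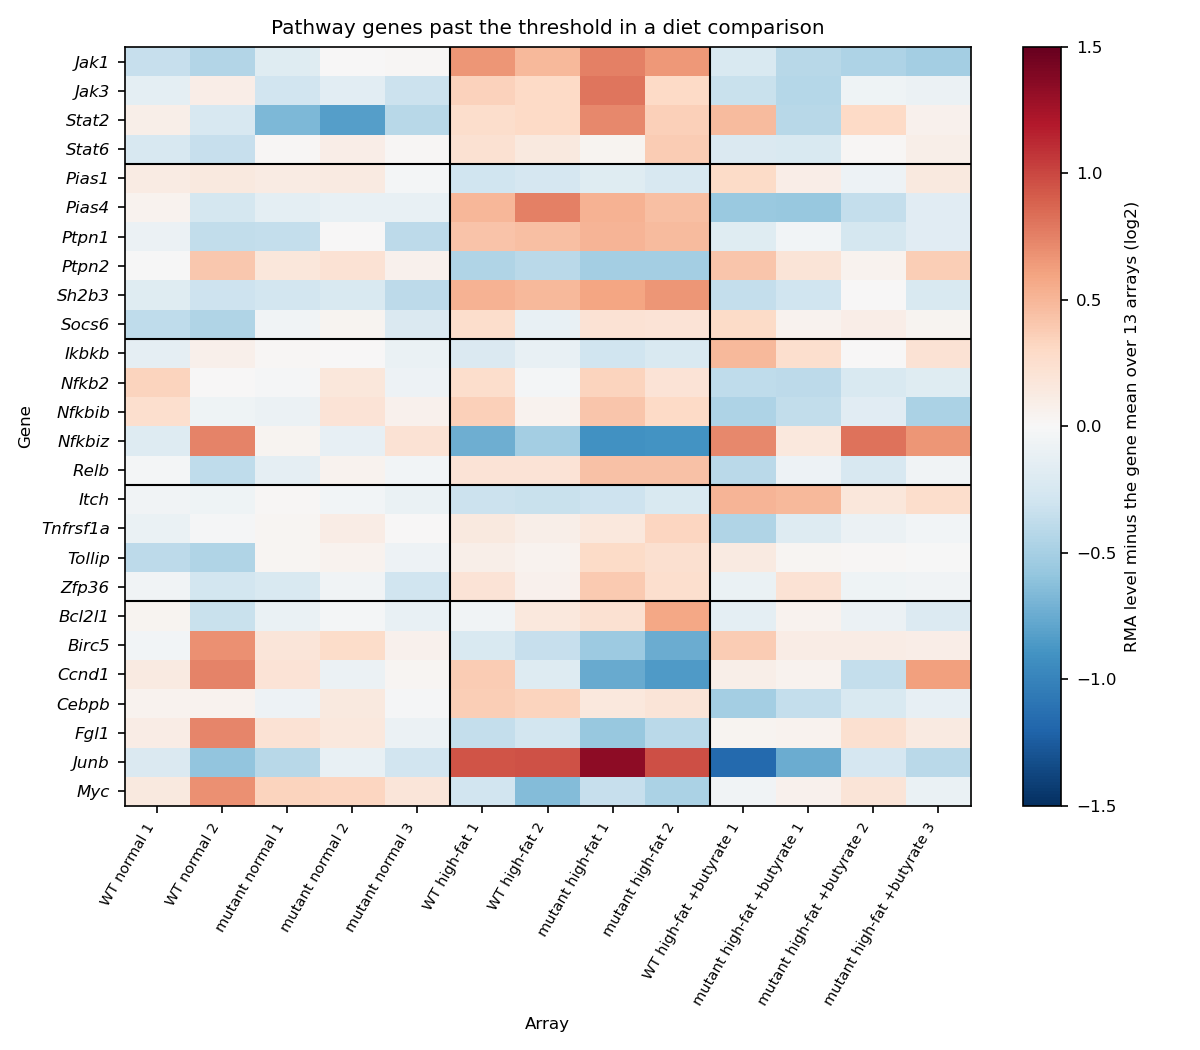
RMA level minus the gene's mean over the 13 arrays (log2, colour) for the 26 genes of 5 pathway lists that passed the threshold in a diet comparison (rows, grouped by list) on each array (columns, grouped by diet). Jak1, Sh2b3, Ptpn1, Pias4 and Junb are highest on the 4 high-fat arrays, and Ptpn2 is lowest there.

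Between mutants and wild type none of the 9 genes passed. With diet as a term in the model of all 13 arrays, 0 of 9 were called (0 at an unadjusted p under 0.05), where 1.02% of all genes were called and 16.5% had such an unadjusted p. None was called on normal diet (0.0242% of all genes), on high-fat diet (0.0403%), with butyrate (0%) or without the butyrate arrays (4.63%). The mutant minus wild-type differences lay between -0.22 and 0.17. Their 95% intervals were -0.62 to 0.18 for Socs3, -0.12 to 0.18 for Stat3, -0.40 to 0.10 for Bcl3, -0.22 to 0.37 for Nfkbia and -0.06 to 0.40 for Tnfaip3. They were -0.37 to 0.03 for Socs1, -0.37 to 0.02 for Socs2, -0.16 to 0.20 for Cish and -0.08 to 0.31 for Il6ra. The widest bound was that of Socs3. These intervals hold for the model of all 13 arrays; on normal diet alone the Socs3 interval was wider, -1.18 to 0.10.

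Socs1 came nearest in the 9 arrays without butyrate. There it differed by -0.25 ± 0.09 SE and did not pass (limma adjusted p = 0.155). All 5 mutant arrays (5.28 to 5.55) lay below all 4 wild-type arrays (5.59 to 5.71), as in 2.3% of all genes. That share counts only genes lower in mutants, whereas Socs1 was singled out after the values were seen. Either direction would have been singled out, and the share for both is at least as large. Beside Socs1, 11 of 14 macrophage and dendritic cell markers were lower in mutants in the same 9 arrays (median -0.91). So were 5 of 13 T cell and intraepithelial lymphocyte markers (median -0.47) and 1 of 9 B and plasma cell markers (median -0.46). Outside the immune lists, 3 of 11 enterocyte markers (median -0.07) and 1 of 11 smooth muscle and fibroblast markers (median -0.08) were lower as well. On normal diet the mean of the macrophage markers was 7.72 to 7.93 in wild type and 7.05 to 7.22 in mutants. The part of any of these cells in the Socs1 values was not tested. With butyrate the mutant arrays (5.09 to 5.44) lay on both sides of the wild-type array (5.13). On normal diet Socs1 differed by -0.35 ± 0.13 (adjusted p = 0.32), and on high-fat diet Tnfaip3 differed by 0.43 ± 0.17 (adjusted p = 0.387). With butyrate Bcl3 differed by -0.52 ± 0.21 from the single wild-type array (adjusted p = 0.815), which is assumed to vary like the other groups.

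Among the pathway lists, Il18 (-0.42 ± 0.07, limma adjusted p = 0.0355) and the NF-kappaB adaptor gene Tifa passed between genotypes with diet as a term. Without the butyrate arrays Usp18, which restrains interferon receptor signalling (-1.31 ± 0.29), Cxcl10 (-0.92 ± 0.18), Cxcl16 (0.44 ± 0.09) and Tollip (0.32 ± 0.07) passed too. With diet as a term over 13 arrays, 4 of the 14 macrophage and dendritic cell markers were lower in mutants (median -0.73), and their part in these genes was not tested.

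**Figure D5:**
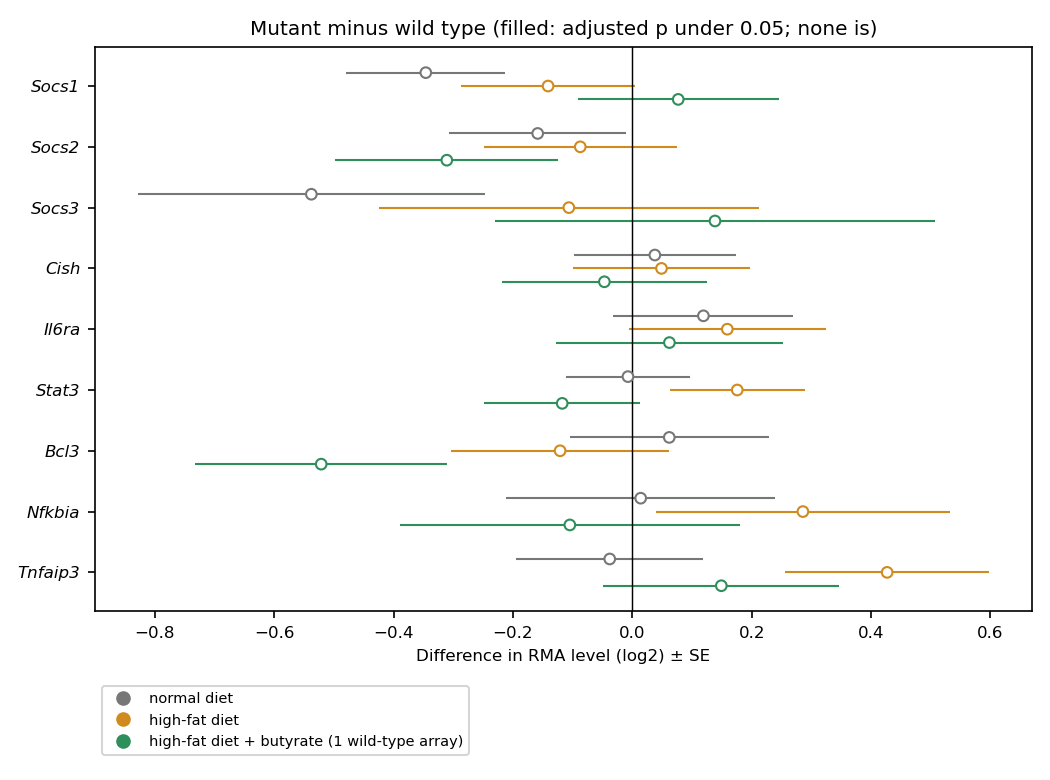
Mutant minus wild-type difference in RMA level (log2, x axis) of each gene (y axis) within each diet; points are estimates and bars are ± 1 SE. No point passed the threshold, and the estimates lie between -0.54 and 0.43.

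The diet effect was not shown to differ between genotypes for any of the 9 genes. The difference of the high-fat effect, mutants minus wild type, was 0.46 ± 0.23 SE for Tnfaip3, 0.43 ± 0.43 for Socs3, 0.18 ± 0.15 for Stat3 and 0.27 ± 0.33 for Nfkbia. None of the 9 passed (smallest limma adjusted p 0.915, 0 at an unadjusted p under 0.05), and 0.00807% of all genes did (5.01% at that unadjusted p). So the calls of Stat3 and Tnfaip3 in mutants, and not in wild type, do not show that the genotypes responded differently.

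The genes most like each of the 4 called genes were sought among 8554 others at or above the 30th percentile of level, by Pearson's r over the 13 arrays. They are described only, since they were picked as the highest and the arrays of a diet share a number range of unknown meaning. For Socs3 they were Qtrt1 (r = 0.97) and Ifitm2 (0.95), for Stat3 Lpar1 (0.96) and Rnf128 (0.94), for Bcl3 Thop1 (0.93) and Tex261 (0.91), and for Tnfaip3 Bcl2l1 (0.92) and Ndfip2 (0.91). After group means were taken out, over the 12 arrays of groups with more than 1 array, r was 0.80 and 0.85 for the genes like Socs3 and 0.93 and 0.71 for those like Stat3. It was 0.77 and 0.64 for those like Bcl3, and 0.89 and 0.78 for those like Tnfaip3. Bcl2l1, an inhibitor of cell death, is itself in the list of Stat3 targets, and it rose on high-fat diet in mutants (0.49 ± 0.15, limma adjusted p = 0.0442).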

How the data were processed

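Per the labels' protocols, 200 ng of total RNA per sample was amplified and labelled with biotin. The authors deposited log2 values from RMA in Affymetrix Expression Console 1.1, per the submitters' processing notes. No source used here gives their genome build. The labelling kit is named for whole transcripts, but probe set names are those of a 3' array. Of 22690 probe sets, 20380 had 1 symbol in the platform annotation.

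From these values, limma 3.58.1 in R 4.3.3 (lmFit, eBayes with trend, two-sided) was fitted to 12393 genes in 10 comparisons, with 6 group means or with diet and genotype as terms. Every adjusted p is Benjamini-Hochberg's over all genes, or over all probe sets where stated. The labels do not say that each array is another animal, so the p-values reflect the spread between arrays, which may be technical. The members, gene lists and tests were chosen with earlier results of these data known. Named were the members and their probe sets, up to 4 called genes per pathway list and comparison, and the 2 most similar genes; any gene beyond these was named after its values were seen. In simulated data with 200 changed genes, the comparison of high-fat with normal diet in mutants found 20.9% of those changed by 0.5 (log2). It found 86.6% of those changed by 1, with 10 false calls. In the real data this comparison called 2197 genes, many more than the 200 changed in the simulation. The simulated shares therefore do not give the recovery of the reported fits. The K-Ras gene was not analysed here.

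Alternatives were quantile normalization, no genes under the 30th percentile of level, the mean of probe sets, no trend, array weights, the replicate number as a block, only the compared groups, the acinar mean as a covariate, equal weight per diet, and each array left out.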

Additional observations from a re-analysis of the deposited data

How the results depend on the processing

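Of 1269 values of the 9 genes under the other settings, 70 changed sign, all in values that passed in neither fit. The 7 called differences kept their sign in all 91 fits and passed in 79, while 5 other values passed in an alternative only. The count of called genes among the 9 stayed at 0 in every genotype comparison and in the genotype difference. For high-fat against normal diet in wild type (1 called) it was 2 with the mean of probe sets and 0 with the compared groups alone, and 1 to 2 with each array left out. In mutants (3 called) it was 1 to 3 with each array left out, lowest without mutant high-fat array 2. For butyrate against high-fat diet (2 called) it was 2 in each such fit, and 3 with the mean of probe sets, where Il6ra passed (-0.44, adjusted p = 0.0254). For butyrate against normal diet (1 called) it was 2 with array weights, where Socs3 passed too, 0 with the acinar mean as a covariate, and 0 to 1 with each array left out. With the compared groups alone it stayed at 1, with Socs3 in place of Bcl3. The causes were not tested. Of 90 values from the other probe sets, an alternative chosen after seeing the data, 27 had the other sign, all in values that passed in neither fit. Leaving out the single wild-type butyrate array gives no value for that diet.

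With the replicate number as a block on the 12 numbered arrays, the counts for these diet comparisons were 1, 3, 2 and 1, as without it, and 983, 1601, 2097 and 132 of all genes were called in place of 1368, 2197, 2685 and 195. The deviations of same-numbered arrays from their group means did not correlate above 0.1 within a diet (r from -0.33 to 0.01). These values cannot decide whether the numbers pair the samples. In a group of 2 arrays the deviations mirror each other, so both high-fat values are the same by construction (0.01). How strongly paired arrays would correlate was not tested. On high-fat diet, identifiers of replicate 2 in both genotypes contain a common number, whose meaning is unknown. The reported fits did not pair the samples.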
